A study of Mus musculus with 12 samples.

Results

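Cd47 and Cd200 encode surface proteins through which a cell holds back other immune cells. CD47 is carried by nearly all cells and is read by SIRPA on macrophages and dendritic cells, where it acts as a signal against engulfment, and it also binds the secreted protein thrombospondin-1. CD200 is carried by B cells, some T cells, neurons and endothelium and is read by CD200R1, an inhibitory receptor found mainly on myeloid cells. On B cells both proteins are therefore outgoing signals, whose receptors are expected on the cells that B cells meet. The genes were taken as the rows of the count table with these symbols, 2 genes of 37991, and they were picked because both were higher at 3 h in cells that lack Runx1 exon 4. The values at 3 h, and every comparison that uses those samples, are therefore given for these genes as a description with no test. Only the resting samples give a test of the genotypes. Whether samples at rest and at 3 h share mice is not given in the sources used here. This test may therefore not be independent of the choice.

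RNA was sequenced from resting B cells of the spleen of mice aged 8 weeks, in 4 groups of 3 samples. Cre-only mice carried the CD23-iCre transgene, in which the promoter of the Fc receptor gene CD23 drives Cre recombinase from the transitional B cell stage onward, and had an intact Runx1 gene. Runx1 c-k/o mice carried the same transgene and Runx1 fl/fl alleles, from which Cre removes exon 4 of Runx1, a gene for a DNA-binding transcription factor of blood cells. They are called the knockout below. All 4 groups thus carried the transgene, and a group without it was not analysed here. Cells other than B cells, and B cells already activated and bearing CD43, were removed by negative selection to give the resting cells (0 h). The other samples were then held for 3 h with anti-IgM, which engages the B cell receptor, and IL-4. The replicates are described as biological, but which mice each sample came from is not given in the sources used here, so that p-values measure the spread between these samples.

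Values are normalized CPM, that is, reads of a gene per 1000000 counts of its library, with the library totals scaled by TMM in edgeR. Totals lay between 14442251 and 23641552 counts, at which 3 counts correspond to 0.127 to 0.208 CPM before scaling. Cd47 had 964 to 3917 counts and Cd200 had 227 to 1419 counts in a library. The libraries of knockout rest replicate 2 and knockout 3 h replicate 1 stood apart from their groups in correlation over all genes, and the genotype and time differences of Cd47 and Cd200 that use them are given without them as well. Runx1 itself was read over all its exons, so that the loss of exon 4 need not lower its count. It was at 83.6, 81.8 and 86.7 CPM in Cre-only cells at rest and at 101, 95.7 and 103 in resting knockout cells (log2 difference 0.25, edgeR adjusted p = 0.548, or 0.0135 and 0.000441 with a RUVs factor in edgeR and DESeq2), and its mean at 3 h was 36.8 against 64.1 (0.80, adjusted p = 0.00769, or 0.099 when only the 2 groups compared were fitted). The count therefore did not check the genotype labels. The cells carried 9 B cell markers at a summed 7410 to 19300 CPM. Between genotypes edgeR called none of these, beside 1.49% of all tested genes at rest and 2.77% at 3 h. The groups of Cd22 were apart at 3 h, at 220 to 242 CPM in Cre-only and 121 to 195 in knockout cells (log2 -0.56, edgeR adjusted p = 0.086). Groups were apart at 3 h for 21.8% of all tested genes. DESeq2 called Cr2 at rest and Cd22 at 3 h. Over all genes it called 378 at rest and 707 at 3 h, to be read beside its list counts below.

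Cd47 (ENSMUSG00000055447) lies on the plus strand at chr16:49855731-49915123 and Cd200 (ENSMUSG00000022661) on the minus strand at chr16:45382248-45409166 in mouse genome mm9, the build of the counts. Their start sites are 4.45 Mb apart, on the chromosome that also holds Runx1 at chr16:92601712-92826311, 43.0 Mb from the start of Cd47 and 47.4 Mb from that of Cd200. The annotation gives Cd47 3 transcripts over 5277 exonic bases and Cd200 11 transcripts over 3321. No other gene overlaps Cd200. In Cd47, a second identifier with the same symbol (ENSMUSG00000079488, annotated as a pseudogene) lies on the same strand inside the last exon and covers 1815 bases, 34.4% of the exonic bases. It had 0 counts in all 12 libraries, and how reads over both features were counted is not given in the sources used here. The level of Cd47 may therefore leave out reads of that stretch, in every library alike, and its level per length is given on both lengths below.

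The 250 bases before each start site are shown because both genes were higher in the knockout at 3 h, the difference that chose them, and their promoters differ in base composition. They are taken from RefSeq on build GRCm38.p6, whose coordinates differ from those of mm9, and read 5′ to 3′ on the strand of the gene. Capitals mark GC boxes (GGGCGG) and half-sites of the cAMP response element (TGACG), searched on both strands. Of 2 Cd47 start sites listed by RefSeq, 7 bases apart, the upstream one is shown.
Cd47, GRCm38.p6 chr16:49855404-49855653, plus strand: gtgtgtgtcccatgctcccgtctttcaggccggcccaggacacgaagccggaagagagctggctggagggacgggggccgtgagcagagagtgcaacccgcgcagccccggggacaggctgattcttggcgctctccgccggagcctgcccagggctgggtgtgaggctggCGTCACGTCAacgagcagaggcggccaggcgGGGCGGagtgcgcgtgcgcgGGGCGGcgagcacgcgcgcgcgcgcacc
Cd200, GRCm38.p6 chr16:45409054-45409303, minus strand: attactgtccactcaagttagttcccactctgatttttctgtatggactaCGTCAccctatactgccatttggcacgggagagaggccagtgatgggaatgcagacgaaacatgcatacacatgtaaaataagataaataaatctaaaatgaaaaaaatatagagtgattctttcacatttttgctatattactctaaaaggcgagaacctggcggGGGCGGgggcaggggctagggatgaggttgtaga
The Cd47 sequence was 73.2% G or C with 30 CpG dinucleotides, and the Cd200 sequence was 42.4% G or C with 6, where the median of all 32851 RefSeq windows of this length was 52.4% and 6. Cd47 held 2 GC boxes, at bases -48 and -28, and 2 half-sites side by side, at -79 and -74. Cd200 held 1 GC box at -34 and 1 half-site at -200. A GC box was found in 32.7% of all windows and a half-site in 17.8%. Neither sequence held the RUNX core (TGTGGT or TGCGGT, in 18.6% of all windows) or an E-box (CACGTG, 6.02%). These matches describe the letters of the windows and no binding.

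In resting cells, the genotypes were compared to ask whether the knockout shifts either signal before the cells are stimulated. Cd200 was higher in knockout cells. It was at 33.0, 34.2 and 37.7 CPM in the Cre-only samples, 35.0 ± 2.46 (SD, n = 3), and at 83.1, 75.6 and 78.6 in the knockout samples, 79.1 ± 3.77. The lowest knockout sample lay well above the highest Cre-only sample. The fold difference was 2.26 (log2 1.18, SE 0.107, edgeR quasi-likelihood test, adjusted p = 0.000184). In this comparison edgeR called 99 of 13538 tested genes higher, 0.731%. Without knockout rest replicate 2 the difference was 1.21 with an adjusted p of 0.000391.

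Cd47 showed a much smaller difference at rest that did not pass the test. It was at 189, 194 and 181 CPM in Cre-only cells, 188 ± 6.54 (SD, n = 3), and at 225, 219 and 224 in knockout cells, 222 ± 3.12. The groups did not overlap, as was so in either direction for 23.7% of the tested genes. The fold was 1.18 (log2 0.24, SE 0.0846) and the edgeR adjusted p over all genes was 0.27, from an unadjusted p of 0.0141. Without knockout rest replicate 2 it was at 0.25, with an adjusted p of 0.4. Cd47 missed the threshold under every alternative fit run, with adjusted p from 0.0593 to 0.64, while Cd200 passed under every one, from 3.52e-23 to 0.00279.

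At 3 h both genes were at lower levels than at rest in each genotype, and both were higher in the knockout than in the Cre-only samples, which is the difference that chose them. Cd47 was at 64.4, 63.0 and 70.3 CPM in Cre-only cells, 65.9 ± 3.90 (SD, n = 3), and at 162, 135 and 154 in knockout cells, 150 ± 13.9. Every knockout sample was above every Cre-only sample, and the fitted difference was 2.28-fold (log2 1.19, SE 0.0864). Cd200 was at 15.5, 14.8 and 17.6 CPM in Cre-only cells, 16 ± 1.44, and at 59.2, 47.9 and 60.0 in knockout cells, 55.7 ± 6.74. Here too the groups were apart, by 3.49-fold (log2 1.8, SE 0.111). Groups apart in either direction were seen for 21.8% of tested genes at 3 h, and 1.47% were called higher by edgeR, shares from which nothing is read for genes that were chosen on this comparison. Within the 3-h knockout group, replicate 2 was lowest for both genes. Without it the log2 differences were 1.26 for Cd47 and 1.90 for Cd200, and without replicate 1 of that group they were 1.15 and 1.78.

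**Figure D1:**
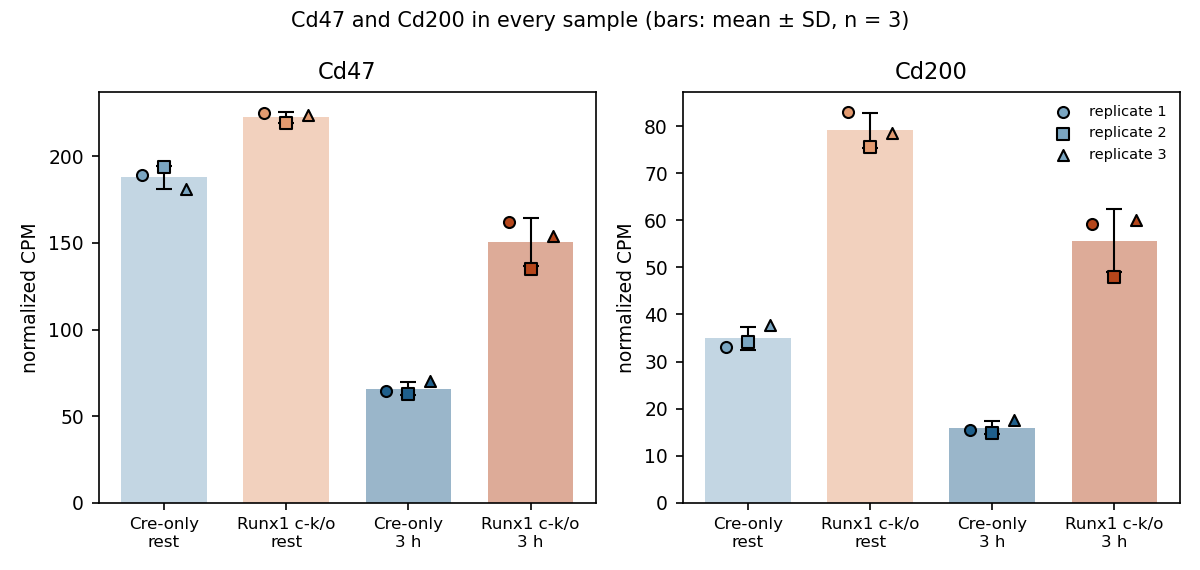
Normalized CPM of Cd47 (left) and Cd200 (right) in each of the 12 samples, by group, with bars at the mean and error bars of 1 SD (n = 3) and a marker shape for each replicate number. The 4 groups of each gene do not overlap: the Cre-only 3 h samples are lowest for both, at 63.0 to 70.3 and 14.8 to 17.6 CPM, and the resting knockout samples are highest, at 219 to 225 and 75.6 to 83.1.

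The order of the groups differed between the genes in 1 place. For Cd47 it ran from resting knockout through resting Cre-only and 3-h knockout to 3-h Cre-only cells, and for Cd200 the 3-h knockout cells stood above the resting Cre-only cells. No neighbouring groups in either order overlapped. Between rest and 3 h, groups apart in either direction were seen for 84.4% of tested genes in Cre-only cells and for 72.8% in the knockout. After 3 h Cre-only cells held 35.1% of their resting mean of Cd47, and knockout cells 67.5%. For Cd200 these shares were 45.6% and 70.4%. Set against the resting Cre-only mean, the 3-h knockout mean was 79.9% for Cd47 and 159% for Cd200. In the fit, the log2 difference between 3 h and rest was -1.51 (SE 0.0869) for Cd47 in Cre-only cells and -0.57 (SE 0.0849) in knockout cells. For Cd200 it was -1.13 (SE 0.11) and -0.51 (SE 0.105). The knockout values for Cd47 and Cd200 were -0.57 and -0.53 without rest replicate 2 and -0.64 and -0.57 without 3 h replicate 1. Without the latter, the share kept by the knockout was 64.9% for Cd47 and 68.2% for Cd200. Lower levels at 3 h were common, since edgeR called 36.4% of tested genes lower and 38.6% higher (75.0% in all) in Cre-only cells, and 36.6% lower and 37.7% higher (74.3% in all) in the knockout.

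The genotype difference at 3 h exceeded that at rest by 0.95 on the log2 scale for Cd47 (SE 0.12) and by 0.63 for Cd200 (SE 0.152), or by 0.94 and 0.60 without knockout rest replicate 2 and by 0.92 and 0.62 without knockout 3 h replicate 1. The genes thus came to their 3-h difference from unlike starting points. Most of the log2 difference of Cd200 was already there at rest, and most of that of Cd47 was seen only at 3 h. In bulk RNA, fewer cells that hold a transcript and less of it per cell cannot be told apart, and a change in the total RNA of a cell is not seen after scaling to the library.

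**Figure D2:**
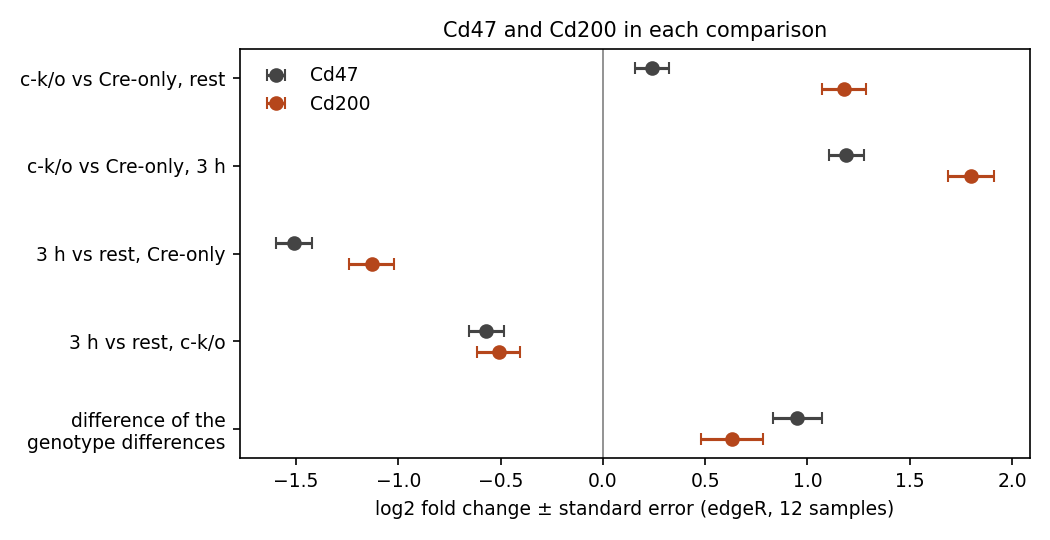
Log2 fold changes of Cd47 and Cd200 with standard errors from the edgeR fit of 12 samples, for the genotype difference at rest and at 3 h, the difference between 3 h and rest in each genotype, and the 3-h minus the resting genotype difference. At rest Cd47 lies at 0.24 and Cd200 at 1.18, at 3 h they lie at 1.19 and 1.8, and only the resting values were tested.

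Compared per length, Cd47 was the more abundant transcript in every group. Over all exonic bases it was at 35.6 CPM per kb without stimulation in Cre-only and 42.1 in knockout cells, with 12.5 and 28.4 at 3 h. Cd200 was at 10.5 and 23.8 CPM per kb at rest and at 4.8 and 16.8 at 3 h. The ratio of the Cd47 to the Cd200 level per kb was 3.39 for Cre-only cells at rest and 2.6 at 3 h, against 1.77 and 1.69 for the knockout. With the bases shared with the second Cd47 identifier left out of the length, these ratios were 5.17, 3.96, 2.7 and 2.58. On all exonic bases the knockout ratio was 1.74 at rest without replicate 2 and 1.68 at 3 h without replicate 1. The mRNA ratio of the signals was thus lower in the knockout at both times, a description that includes the samples that chose the genes.

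The receptors and secreted ligands of CD47 were read in the same libraries as a check of which parts of the pathway these cells transcribe. Of 6 listed genes 5 were tested. None passed the test between genotypes, 0 of 5 at rest and 0 of 5 at 3 h (1 of 5 at 3 h and 0 at rest at an unadjusted edgeR p under 0.05, and 0 by DESeq2 at both times). Of all tested genes, edgeR called 1.49% at rest and 2.77% at 3 h, and 11.1% and 16.2% were at that unadjusted p. All 5 fell between rest and 3 h in both genotypes, as did 36.4% of all tested genes in Cre-only cells and 36.6% in the knockout. Sirpa, the main CD47 receptor and a phagocyte gene, was at 75.9, 64.6 and 84.4 CPM in resting Cre-only and at 54.8, 123 and 83.7 in resting knockout cells, so that the groups overlapped (log2 0.22, adjusted p = 0.74, and -0.12 without knockout rest replicate 2). At 3 h Sirpa was at 28.7, 24.6 and 25.2 against 37.8, 46.5 and 31.9 CPM (0.57, adjusted p = 0.277). Sirpa fell by 1.52 on the log2 scale in Cre-only and by 1.17 in knockout cells (adjusted p = 0.000103 and 0.000746).

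Thbs1, which encodes thrombospondin-1, was at 4.27 ± 1.27 CPM in resting Cre-only and 3.66 ± 1.07 in resting knockout cells (SD, n = 3). Between rest and 3 h it fell in both genotypes, with log2 changes of -3.20 and -2.44. The related receptors Sirpb1a, Sirpb1b and Sirpb1c were at mean levels of 0.579 to 2.43 CPM at rest and had 0 to 3 counts in each 3-h library. Their fitted fold changes at 3 h depend on the prior count, and their sequences are alike enough that reads may be split between them. Thbs2 had 0 or 1 count in each library and was not tested.

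The CD200 receptors were read at low counts. Cd200r1, the inhibitory receptor, was the only 1 of 4 that was tested. It was at 1.45, 1.08 and 1.24 CPM in resting Cre-only and at 1.29, 1.49 and 2.59 in resting knockout cells, with overlap (log2 0.49, edgeR adjusted p = 0.646). At 3 h it had 7, 1 and 2 counts against 4, 10 and 6 (1.18, adjusted p = 0.349), and the log2 difference ran from 0.73 without knockout 3 h replicate 2 to 2.03 without Cre-only 3 h replicate 1. Between rest and 3 h Cd200r1 fell, with log2 changes of -2.75 in Cre-only cells and -2.06 in the knockout (adjusted p = 0.000255 and 0.000738). Cd200r4 and Cd200r3 had at most 10 and 6 counts in any library, and Cd200r2 had 0 in all 12. Cd200 was thus read at 14.8 to 83.1 CPM in libraries that held 0 to 39 counts of each of its receptors.

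Sirpa and the CD200 receptors are genes of myeloid cells. Summed markers of these cells fell between rest and 3 h, and by more than Sirpa did. Mean Sirpa went from 75.0 to 26.1 CPM in Cre-only and from 87.2 to 38.8 in knockout cells. The 12 listed monocyte, macrophage and neutrophil markers summed to 573 to 753 CPM in resting Cre-only and 503 to 1100 in resting knockout cells, and to 23.1 to 34.1 and 29.2 to 101 at 3 h. None of the 12 was at 0 throughout. The highest sums within each time were those of knockout replicate 2, which also had the highest Sirpa value at each time. Resting Cd200r1 was instead highest in knockout replicate 3, at 2.59 CPM. The markers did not all share the order of the sum. Among knockout samples Csf1r, Adgre1, Cd14, C1qa, C1qb, C1qc and Vcam1 were highest in replicate 2 at each time. Itgam, S100a8 and S100a9 were highest in replicate 1 at each time. Itgam was at 9.66, 4.98 and 4.38 CPM in resting knockout replicates 1 to 3. The part of myeloid cells in the receptor values was not tested. The part of myeloid cells in the levels of Cd47 and Cd200 was not tested either. Genotype differences of Cd47 and Cd200 without knockout replicate 2 are given above for each time.

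Markers of other cell types were summed in the same way. T cell markers summed to 6.32 to 18.7 CPM at rest and 79.5 to 116 at 3 h. Of these, Il7r alone went from a mean of 1.74 to 98.6 CPM in Cre-only cells and from 1.82, 11.5 and 1.26 CPM in the 3 resting samples of the knockout to a mean of 91.1, while the means of Cd3d, Cd3e and Cd3g were at most 0.527 CPM in any group and that of Cd4 went from 2.84 to 0.216 in Cre-only cells. Dendritic cell markers summed to 29.4 to 39 over all groups, and NK cell markers to 1.94 to 12.2. The dendritic cell markers moved in both directions under that sum. With stimulation the mean of Zbtb46 went from 1.45 to 17.8 CPM in Cre-only and from 1.25 to 17.4 in knockout cells. That of Flt3 went from 16.5 to 6.14 and from 18.4 to 5.77. Endothelial and stromal markers, of interest because endothelium carries CD200, summed to 2.16 to 3.57 CPM at rest and 0.257 to 0.984 at 3 h, with Emcn at 0 in all 12 libraries, and the ranges of the genotypes overlapped at both times. Erythroid markers summed to 36.3 to 254 CPM in Cre-only and 246 to 410 in knockout cells at rest, and 12.5 to 137 and 115 to 203 at 3 h. Marginal zone B cell markers summed to 593 to 651 and 563 to 740 CPM at rest. Transitional B cell markers were lower in the knockout by range, at 115 to 146 against 97.9 to 113 CPM at rest and 68.7 to 90.9 against 36.0 to 59.7 at 3 h. Plasma cell markers summed to 195 to 264 CPM in Cre-only cells and 165 to 401 in the knockout at rest. At 3 h their sum was higher in the knockout by range, at 286 to 348 against 398 to 439. The 3-h means of Xbp1 (241 against 327) and Igj (64.0 against 87.6) were higher in the knockout. Those of Sdc1 (3.98 against 3.41) and Prdm1 (7.45 against 6.7) were lower. Of these markers Sdc1 fell in the knockout at rest, by 1.35 on the log2 scale (edgeR adjusted p = 0.00157). No other of the 54 tested markers was called between genotypes by edgeR, which called 1.49% of all tested genes at rest and 2.77% at 3 h. Beyond Sdc1 at rest, DESeq2 called Cr2 at rest and Cd22 at 3 h, and with a RUVs factor it also called Xbp1 at both times, Cr2, Cd93, Cd9 and 2010001M09Rik at 3 h and S1pr3 at rest. DESeq2 thus called 2 of 54 markers at rest and 1 at 3 h, and 4 and 6 with the factor. Over all genes it called 378 and 707, and 586 and 1151 with the factor. The part of the erythroid, transitional and plasma cell values in the results was not tested.

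For the proteins that work with CD47 inside the membrane of its own cell, and the enzymes that finish it, edgeR called no difference between genotypes. Of 9 partners (integrin subunits, ubiquilins, Bnip3 and inhibitory G protein subunits) 0 were called at rest and 0 at 3 h by edgeR, with 1 at each time at an unadjusted p under 0.05 and 0 and 1 by DESeq2. Of all tested genes, 1.49% and 2.77% were called and 11.1% and 16.2% were at an unadjusted p under 0.05. Their log2 differences ran from -0.50 to 0.36 at rest and from -0.69 to 0.14 at 3 h. With stimulation 5 of the 9 rose and 3 fell in Cre-only cells, and 4 rose and 3 fell in knockout cells, shares of called genes to be read beside the 75.0% and 74.3% of all tested genes. Itgav, the integrin alpha V subunit whose complex with Itgb3 binds CD47, rose by 3.02 and 2.81 on the log2 scale. Itgb3 changed by 0.73 in Cre-only and -0.11 in knockout cells, and between genotypes it was at -0.69 at 3 h (edgeR adjusted p = 0.0734). Itga4 fell by 3.64 and 3.24. These integrin genes were named after their values were seen. Qpctl, the glutaminyl cyclase that makes the end of CD47 that SIRPA binds, was at 0.01 and 0.06 between genotypes (adjusted p not under 0.05) and was the only tested gene of 2.

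Genes that act downstream of the receptors were read as well. Of the 5 SIRPA signalling genes, which include the phosphatase genes Ptpn6 and Ptpn11, 0 were called between genotypes at either time by edgeR (1 at rest and 3 at 3 h at an unadjusted p under 0.05, and 1 at each time by DESeq2). Of all tested genes, edgeR called 1.49% and 2.77%, and 11.1% and 16.2% were at an unadjusted p under 0.05. DESeq2 called 378 and 707 genes in all. With stimulation 4 fell and 1 rose in each genotype, where 75.0% and 74.3% of all tested genes were called in some direction. Of the 4 CD200R signalling genes, among them the adaptor genes Dok1 and Dok2, 0 were called at either time (0 and 1 at an unadjusted p under 0.05, 0 by DESeq2), and 1 rose with stimulation in each genotype. B cells use several of these genes for their own receptors, so their level is not a measure of SIRPA or CD200R activity.

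Other signals that a B cell shows to phagocytes were read to see how Cd47 and Cd200 compare with them. Of 9 further restraint signals 0 were called between genotypes at either time by edgeR (1 at rest and 2 at 3 h at an unadjusted p under 0.05, 0 by DESeq2), with a median log2 difference of 0.09 at rest and 0.25 at 3 h, where the medians of all tested genes were 0.03 and 0.01. Of all tested genes, 1.49% and 2.77% were called between genotypes and 11.1% and 16.2% were at an unadjusted p under 0.05. With stimulation 7 fell and 0 rose in Cre-only cells, and 7 fell and 0 rose in knockout cells, with medians of -1.75 and -1.33. Cd24a, a ligand of SIGLEC10 in humans, fell in Cre-only cells and the knockout, with log2 changes of -2.98 and -2.90, and so did Cd55, which limits complement (-5.5 and -4.67). The 3-h knockout values of Cd55 were 10.7, 44.4 and 11 CPM, so that replicate 2 set the smaller change there. Of all tested genes, 36.4% and 36.6% were called lower. Cd24a and Cd55 were named after their values were seen.

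Of 10 uptake signals and scramblases 0 were called between genotypes at either time by edgeR (1 at rest and 2 at 3 h at an unadjusted p under 0.05, 1 and 0 by DESeq2), beside 1.49% and 2.77% of all tested genes called and 11.1% and 16.2% at that unadjusted p. With stimulation 5 rose and 3 fell in Cre-only cells, 4 and 3 in knockout cells, where 75.0% and 74.3% of all tested genes were called in some direction. Calr, which encodes calreticulin, an uptake signal at the cell surface, rose by 0.83 and 0.91 on the log2 scale and was named after its values were seen. In Cre-only cells Calr rose while Cd47 stood lower at 3 h than at rest.

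Among ligands that B cells show to T cells, 12 of 14 were tested. At rest edgeR called 1 of 12 (5 at an unadjusted p under 0.05, 1 by DESeq2), and at 3 h 2 of 12 (6 at an unadjusted p under 0.05, 4 by DESeq2). Of all tested genes, 1.49% and 2.77% were called by edgeR and 11.1% and 16.2% were at an unadjusted p under 0.05. DESeq2 called 378 genes in all at rest and 707 at 3 h. Pdcd1lg2, which encodes the PD-1 ligand PD-L2, was lower in the knockout. It was at 8.29, 10.2 and 11.5 CPM in resting Cre-only and 3.51, 4.52 and 3.32 in resting knockout cells (log2 -1.40, SE 0.155, edgeR adjusted p = 0.000757). At 3 h Pdcd1lg2 was at 21.1, 23.4 and 22.6 against 14.8, 13.5 and 15.5 CPM (-0.62, adjusted p = 0.0301). That call was lost under a replicate block and without any 1 of the 3-h Cre-only replicates or the 3-h knockout replicate 2, with adjusted p from 0.0521 to 0.131. Pdcd1lg2 thus differed in the direction opposite to Cd200 at rest.

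Lgals9, which encodes the TIM-3 ligand galectin-9, moved in the other direction. At rest it was at 139, 126 and 117 CPM in Cre-only and 149, 154 and 145 in knockout cells (log2 0.23, edgeR adjusted p = 0.414). At 3 h Lgals9 was at 29.8, 28.5 and 33.6 against 46.6, 57.3 and 49.6 CPM (0.74, SE 0.102, adjusted p = 0.0018), and it fell with stimulation in both genotypes. Its 4 groups were in the order of those of Cd47. Cd274, the gene of the other PD-1 ligand PD-L1, was at 338 and 326 CPM at rest and 119 and 117 at 3 h in Cre-only and knockout cells, with adjusted p of 0.868 and 0.928.

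Over all 9 lists 56 of 63 genes were tested. At rest 0 were higher and 1 lower in the knockout, 9 of 56 at an unadjusted p under 0.05 and 3 by DESeq2, beside 0.731% and 0.761% of all tested genes called higher and lower and 11.1% at an unadjusted p under 0.05. At 3 h 1 was higher and 1 lower, 16 of 56 at an unadjusted p under 0.05 and 6 by DESeq2, beside 1.47% and 1.3% of all tested genes called and 16.2% at an unadjusted p under 0.05. The median log2 difference was 0.07 at rest and -0.01 at 3 h. The genotype difference at 3 h minus that at rest was called for 0 of the 56 genes by edgeR (5 at an unadjusted p under 0.05, 1 by DESeq2), beside 0.0813% of all genes. At rest the log2 difference of Cd200, 1.18, lay above that of every tested gene of the lists, whose highest was 0.89.

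**Figure D3:**
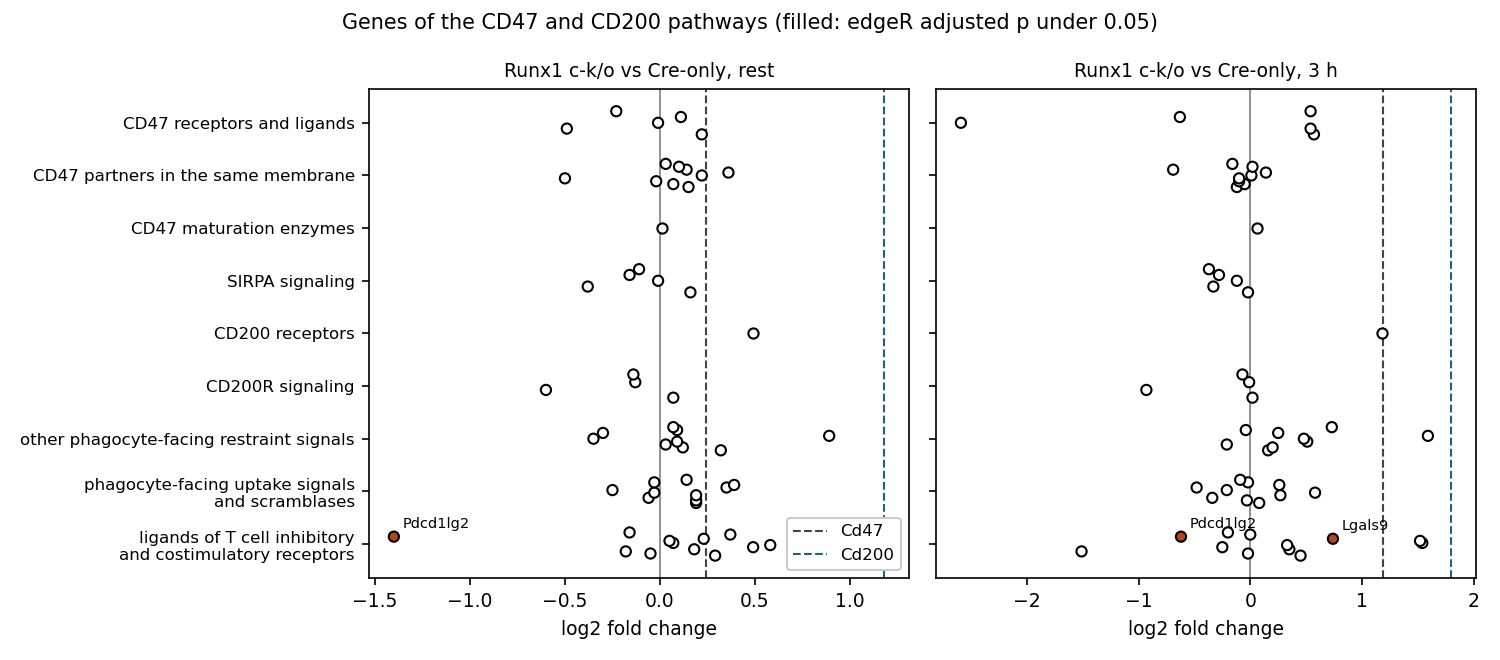
Log2 fold changes between knockout and Cre-only cells at rest (left) and at 3 h (right) for the 56 tested genes of 9 lists around CD47 and CD200, with genes at an edgeR adjusted p under 0.05 filled and dashed lines at Cd47 and Cd200. The filled points are Pdcd1lg2 at both times, at -1.40 and -0.62, and Lgals9 at 3 h, at 0.74.

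The genes around Cd47 and Cd200 were read to see whether the higher levels extended along chromosome 16. The called neighbours differed in direction. Within 1 Mb of the start sites 17 other genes were tested, 5 near Cd47 and 12 near Cd200. At rest 1 was called higher and 4 lower in the knockout, 29.4% of the 17 beside 1.49% of all genes. At 3 h 1 was again higher and 4 lower, beside 2.77%. The count at rest was 2 without Cre-only rest replicate 1, 2 without replicate 2 of that group, 2 without knockout rest replicate 3, and 3 without replicate 1 or 2 of that group. At 3 h it was 3 without Cre-only 3 h replicate 2 or 3. With a window of 2 Mb, 5 of 27 tested genes were called at rest (18.5%) and 6 at 3 h (22.2%). With a window of 0.5 Mb, these were 3 of 7 (42.9%) and 2 of 7 (28.6%). The tested genes of chromosome 16 were also counted, with Cd47 and Cd200 left out but Runx1 and the 17 neighbours within 1 Mb included. Of these 426 genes 14 were called at rest (3.29%, 4 higher and 10 lower) and 16 at 3 h (3.76%, 6 higher and 10 lower). The other chromosomes had 187 (1.43%) and 357 (2.72%) of 13110. Cd47, Cd200, their neighbours and Runx1 share a chromosome. An effect of the floxed chromosome and one of the loss of Runx1 therefore cannot be told apart by position here.

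Nearest to Cd47, at 156 kb, Ift57 was the gene called higher. It encodes a protein of the intraflagellar transport complex of cilia. It was at 2.75, 3.02 and 2.17 CPM in resting Cre-only and at 4.74, 6.72 and 5.18 in resting knockout cells (log2 1.06, SE 0.19, edgeR adjusted p = 0.0158). At 3 h Ift57 was at 3.37, 2.81 and 3.57 against 13.9, 10.6 and 12.4 CPM (1.92, SE 0.18, adjusted p = 0.000157). The groups were apart at both times, and Ift57 rose with stimulation in knockout cells (1.15, adjusted p = 6.29e-05), where Cd47 stood lower. The resting call was lost without Cre-only rest replicate 1 or 3 or knockout rest replicate 2 or 3 (adjusted p from 0.0501 to 0.0784).

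Further from Cd47 the called genes were lower in the knockout. Bbx, a DNA-binding protein gene 577 kb away, was at -0.26 and -0.33 on the log2 scale at rest and 3 h (adjusted p = 0.671 and 0.428). C330027C09Rik, named Cip2a in RefSeq and encoding an inhibitor of the phosphatase PP2A, was 861 kb away, at -0.49 at rest (adjusted p = 0.163) and -0.86 at 3 h (adjusted p = 0.00746). 5330426P16Rik, named Dubr in RefSeq, was at 6.09 ± 0.303 CPM in resting Cre-only and 3.30 ± 0.441 in resting knockout cells (SD, n = 3). Its log2 difference was -0.88 at rest and -0.84 at 3 h (adjusted p = 0.0142 and 0.0236), with the resting call lost without Cre-only rest replicate 1 or 2 or knockout rest replicate 1 or 3 (adjusted p 0.0719 to 0.089) and the 3-h call lost without any 1 of the 3-h Cre-only replicates or 3-h knockout replicate 1 or 2 (0.0549 to 0.0993), with no filter (0.0565), under a replicate block (0.0549) and in the 2-group fit (0.143).

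Nearest to Cd200, at 185 kb, Btla was lower in the knockout while Cd200 was higher. Btla encodes an inhibitory receptor of B and T cells that binds HVEM. It was at 722, 741 and 719 CPM in resting Cre-only and 511, 411 and 495 in resting knockout cells (log2 -0.62, SE 0.1, edgeR adjusted p = 0.00829). At 3 h Btla was at 214, 237 and 242 against 148, 159 and 165 CPM (-0.55, SE 0.101, adjusted p = 0.0109). The groups were apart at both times. The resting call was lost without Cre-only rest replicate 2 (adjusted p = 0.0524), and the 3-h call without Cre-only 3 h replicate 2 or 3 (0.0568 and 0.0591).

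Gcet2, a germinal centre B cell gene 201 kb from Cd200, was low, at 1.61 and 0.397 CPM at rest in Cre-only and knockout cells (adjusted p = 0.391), where the Cre-only samples ranged from 0.53 to 3.07 and the log2 difference of -1.98 was -1.1 without Cre-only rest replicate 2. At 3 h Gcet2 was at -3.24 (adjusted p = 0.154), which passed the threshold without Cre-only 3 h replicate 1 (0.0426), by DESeq2 (0.0163) and by DESeq2 with a RUVs factor (0.00894). Atg3, an autophagy gene 250 kb away, was at 0.18 at both times (adjusted p = 0.663 and 0.494), with -0.01 at 3 h without knockout 3 h replicate 1. Abhd10, a hydrolase gene 334 kb away, was lower at rest only by the test, at -0.52 (adjusted p = 0.0286) and 0.26 at 3 h (0.238), and the difference between these, 0.78, was not called (0.0961). Its resting call was lost without any 1 resting sample other than Cre-only rest replicate 3 (0.0761 to 0.168), with no filter (0.0741), under a replicate block (0.0633) and in the 2-group fit (0.0688). Plcxd2, a phospholipase family gene 601 kb away, was lower in the knockout at both times. It was at 26.6, 31.5 and 30.0 CPM in resting Cre-only and 4.16, 5.62 and 5.31 in resting knockout cells (log2 -2.55, SE 0.177, adjusted p = 2.8e-05), and at 49.8, 58.1 and 57.3 against 21.3, 27.4 and 33.8 CPM at 3 h (-1.0, SE 0.155, adjusted p = 0.00391).

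**Figure D4:**
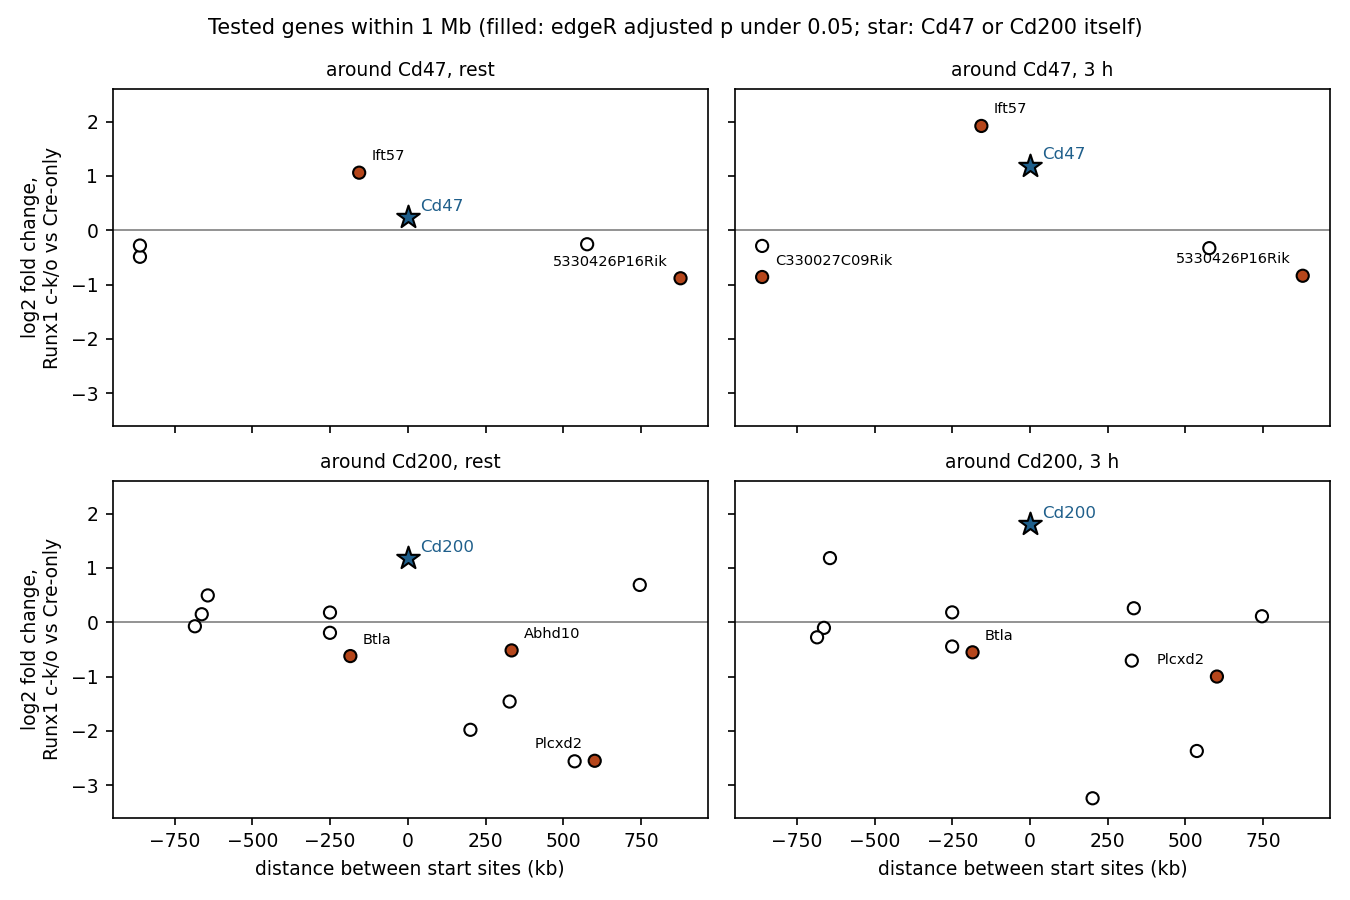
Log2 fold changes between knockout and Cre-only cells of the tested genes within 1 Mb of Cd47 (top) and Cd200 (bottom), at rest (left) and 3 h (right), against the distance in kb between start sites; filled points have an edgeR adjusted p under 0.05, and the star is Cd47 or Cd200 itself. Ift57 is the filled point above 0, at 1.06 and 1.92, and Btla, Plcxd2, 5330426P16Rik, C330027C09Rik (3 h) and Abhd10 (rest) are the filled points below 0.

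The genes whose levels ran most like each over the 12 samples were found by the mean absolute difference between log2(CPM + 0.5) profiles, each centred on its gene's mean. For Cd47 these were Glrx (0.130), Trib1 (0.143), Serpina3g (0.156), Dhx58 (0.163) and Trim30a (0.166), where the median over all tested genes was 0.666. Glrx encodes glutaredoxin, Trib1 a pseudokinase, Serpina3g a protease inhibitor, Dhx58 an RNA helicase of the RIG-I family and Trim30a a TRIM family protein. All 5 lie on other chromosomes. Glrx was at 9.35, 11.2, 3.54 and 6.45 CPM and Trib1 at 83.1, 95.0, 27.9 and 50.4 in resting Cre-only, resting knockout, 3-h Cre-only and 3-h knockout cells, the same order of groups as in Cd47.

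For Cd200 they were Gm6548 (0.176), annotated as a pseudogene whose reads may be shared with its parent gene, Hopx (0.195), a homeodomain protein gene, Rtp4 (0.246), a chaperone gene, Serpine2 (0.270), a protease inhibitor gene, and Ifitm3 (0.277), whose product restricts virus entry, with a median of 0.818 over all tested genes. Rtp4 alone of these lies on chromosome 16. Hopx was at 8.67, 16.2, 4.29 and 12.2 CPM in the same order of groups, with the resting and 3-h knockout means both above those of Cre-only cells. The distance between Cd47 and Cd200 themselves was 0.378, so that each had genes nearer to it than the other. These distances are a description over 12 samples that include those that chose the genes.

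**Figure D5:**
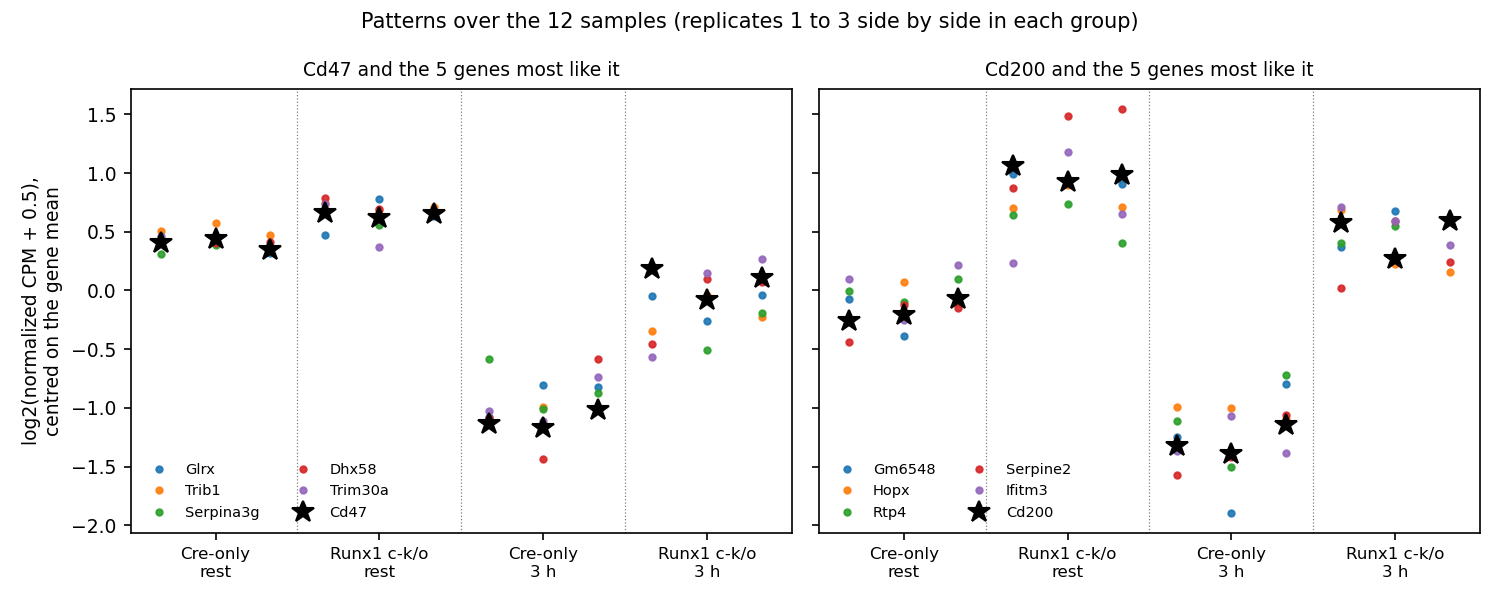
Log2(normalized CPM + 0.5), centred on each gene's mean, of Cd47 (left) and Cd200 (right) as stars and of the 5 genes most like each as coloured points, in the 12 samples ordered by group. In the left panel both resting groups lie above 0 and the 3-h Cre-only samples lie lowest, and in the right panel both knockout groups lie above both Cre-only groups for Cd200.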

How the data were processed

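Poly(A)-selected RNA of 12 samples was sequenced as paired ends from stranded libraries. Per the labels and the study's methods, the authors aligned reads to mm9 with TopHat2 2.0.11, counted them per gene with featureCounts and deposited raw counts without normalization. The strand and overlap settings of the counting are not given in the sources used here. The table holds 37991 genes and 0 spike-in rows. Positions come from GENCODE M1 (Ensembl 65, NCBIM37).

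Tables were made with Python 3.11.15 and pandas 2.3.3. In R 4.3.3, edgeR 4.0.16 kept 13538 genes (filterByExpr, minimum 10 counts). After TMM scaling, a robust quasi-likelihood fit with 4 group terms over 12 samples gave log2 fold changes, standard errors and Benjamini-Hochberg adjusted p-values over all tested genes, with a threshold of 0.05. An exact permutation test of 3 against 3 cannot go below 0.1. Counting intervals and floors cover counting error only, since reads carry no molecular identifiers.

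Cd47, Cd200, the 9 pathway lists and the 10 marker lists were chosen with earlier results of these data known. Named genes were Cd47 and Cd200, their receptors, list genes called between genotypes, the 3 nearest genes and any called gene within 1 Mb, and the 5 most alike genes. The study's own test used DESeq2 with RUV-seq factors. Alternatives were DESeq2 1.42.0 size factors and its Wald test, no filter or at least 10 counts in every sample, 1 RUVs factor in either tool, replicate blocks, 2-group fits, each sample left out, and windows of 0.5 and 2 Mb. Promoter windows of 250 bases came from RefSeq, and 0 per-sample columns went unused.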

Additional observations from a re-analysis of the deposited data

Results flagged for a closer look

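Plcxd2, 601 kb from Cd200, differed between the times in its genotype difference. It was lower in Runx1 c-k/o cells by 2.55 on the log2 scale at rest and by 1.0 at 3 h, and the 3-h minus the resting difference was 1.55 (SE 0.233, edgeR adjusted p = 0.0297). All 3 Runx1 c-k/o samples lay below all 3 Cre-only samples at each time. Under the alternatives the difference between the times ranged from 1.37 to 1.74 with adjusted p from 3.62e-11 to 0.142. It missed the threshold without any 1 of the 6 Cre-only samples, without Runx1 c-k/o rest replicate 1 or 3 and without Runx1 c-k/o 3 h replicate 2, with adjusted p from 0.064 to 0.142. Cd47 and Cd200 were not entered in this search, since their 3-h samples chose them. Groups of 3 samples were not searched for single outlying samples.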

How the results depend on the processing

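Directions and calls of Cd47 and Cd200 between genotypes were the same under all alternatives run. At rest the log2 difference of Cd47 ranged from 0.22 to 0.27 and of Cd200 from 1.14 to 1.23, and at 3 h from 1.15 to 1.26 and from 1.75 to 1.90. Differences between 3 h and rest shifted between the alternatives and kept their sign. For Cd47 in Cre-only cells they were -1.60 with DESeq2 size factors and with its Wald test, -1.67 with at least 10 counts in every sample, -1.66 and -1.77 with a RUVs factor in edgeR and DESeq2, and -1.58 in the 2-group fit. In Runx1 c-k/o cells they were -0.67 with at least 10 counts, and -0.72 and -0.79 with the RUVs factor. For Cd200 they were -1.29 (at least 10 counts) and -1.34 (DESeq2 with RUVs) in Cre-only and -0.68 (DESeq2 with RUVs) in Runx1 c-k/o cells.

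Counts of called genes depended more on the test. DESeq2, edgeR with RUVs and DESeq2 with RUVs called 378, 497 and 586 genes at rest, 707, 956 and 1151 at 3 h, and 79, 113 and 225 for the difference between the times. The 2-group fit called 158 at 3 h. For the pathway lists these 3 fits gave 3, 4 and 5 at rest and 6, 8 and 14 at 3 h, and 4 at 3 h came with size factors and also with at least 10 counts. For neighbours within 1 Mb DESeq2 called 8 at 3 h, and a window of 0.5 Mb held 3 at rest and 2 at 3 h. With 1 sample left out, called genes ranged from 81 to 140 at rest, from 180 to 617 at 3 h and from 4 to 31 for the difference between the times, list genes at 3 h from 1 to 4, and neighbours from 2 to 4 at rest and from 3 to 7 at 3 h. The cause of these shifts was not tested, beyond the fewer samples of the smaller fits. Among the genes followed through the alternatives, which left out most list genes, the only reversed signs were of uncalled genes. These were Atg3 at 3 h (from -0.01 to 0.28), Sirpa at rest (from -0.12 to 0.47) and Thbs1 at rest (from -0.43 to 0.05), each over the fits without 1 sample.

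With the replicate number as a block, Cd47 at rest was at 0.24 (adjusted p = 0.376) and Cd200 at 1.18 (0.000324), list genes called at 3 h were 1, and called genes were 140 at rest and 275 at 3 h. A replicate block within each genotype called 4 genes for the difference between the times. Same-numbered samples of the 2 genotypes were not paired, as their deviations from the group means correlated at -0.091 to 0.102. Between rest and 3 h they correlated at 0.309, 0.211 and 0.175 in Cre-only cells, each the best of its row, but at -0.324, -0.316 and 0.330 in Runx1 c-k/o cells.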
